A study of Mus musculus with 6 samples.

Results

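Rods and cones are the light-sensing cells of the neural retina, whose outer segments lie against the retinal pigment epithelium (RPE), the pigmented cell layer that renews the visual pigment and takes up shed outer segment tips. Transcripts of 38 genes of these cells were examined in poly(A) RNA of RPE/choroid from young and aged mice, as 13 rod genes, 10 cone genes and 15 genes that serve both cell types. The members were taken by symbol, and all 38 were present among the 33924 genes of the authors' comparison, each with a fold change and a p-value. The young group held 3 C57BL/6J mice of 1 to 2 months and the aged group 3 C57BL/6J mice of 20 to 24 months by their titles, or 22 to 24 months by the age field, and the labels give all 6 as male. The study's methods instead describe mice of both sexes and a slightly older young group, and the labels were followed here. The mice carried no transgene or treatment, the neural retina had been lifted off before the RPE/choroid was scraped from the sclera, and both eyes of a mouse were pooled. The samples therefore hold RPE together with choroidal vessels, melanocytes and immune cells. The deposited values are 1 mean over all 6 libraries, 1 fold change and 1 standard error per gene, so no value of a single mouse can be shown and whether the groups overlap cannot be seen.

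In the phototransduction cascade a light-activated visual pigment switches on transducin, a G protein of alpha, beta and gamma subunits. Transducin releases the inhibitory subunit of a cGMP phosphodiesterase, cGMP falls and cGMP-gated channels close. Arrestin and a receptor kinase end the signal, and guanylate cyclase with its calcium-sensing activator proteins restores cGMP. Rods and cones use the same steps with mostly different genes, and the transcription factors CRX, NRL and NR2E3 set which of them are transcribed.

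Of the 38 genes, 2 differed with age at an adjusted p under 0.05, and both were higher in the aged group. Gngt2, the transducin gamma subunit of cones, was 2.14 times as high, and Abca4, the transporter that clears retinoid from outer segment discs, was 1.21 times as high. None of the 13 rod genes, 1 of the 10 cone genes and 1 of the 15 shared genes passed the test, and at an unadjusted p under 0.05 the counts were 1, 1 and 1. Among all 18196 genes tested, 23.3% passed, 12.9% as higher in aged and 10.4% as lower. At an unadjusted Wald p under 0.05 there were 6112 of the 18196. The remaining 36 members had standard errors that were mostly wide: 30 of the 38 had a standard error of at least 0.35 on the log2 scale, a limit that was set in the gap of the values after they were seen, and none of these 30 was called. Each fold change below is aged over young on the log2 scale as the authors' model moderated it, followed by its standard error (SE) over 3 young and 3 aged mice. Adjusted p-values are Benjamini-Hochberg adjustments of the authors' DESeq2 Wald p-values over all tested genes.

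Promoter sequences were available from RefSeq for 27 of the 38 genes, as 28 windows from 250 bases before to 50 bases after a transcription start in build GRCm38.p6. The core of the CRX recognition sequence, TAATCC or its reverse complement GGATTA, was found in 11 of these 28 windows (39.3%), against 7.06% of the 32851 windows of all genes. The matches were in 4 of 9 rod windows, 1 of 7 cone windows and 6 of 12 shared windows. The NRL-type sequence TGCTGAC, or GTCAGCA on the other strand, was found in 2 windows, those of Pde6b and Opn1sw, against 4.67% of all windows. Both searches covered both strands, and neither pair of letters overlaps the other. A match of these letters describes the window and is not a measured binding site. The windows of 4 genes are shown, with each match in capitals. Sag is the member with the highest mean count, Gngt1 is the rod counterpart of the called gene Gngt2, Abca4 was called, and Arr3 had the lowest fold change and held no match.
Sag, chr1:87803430-87803729, plus strand: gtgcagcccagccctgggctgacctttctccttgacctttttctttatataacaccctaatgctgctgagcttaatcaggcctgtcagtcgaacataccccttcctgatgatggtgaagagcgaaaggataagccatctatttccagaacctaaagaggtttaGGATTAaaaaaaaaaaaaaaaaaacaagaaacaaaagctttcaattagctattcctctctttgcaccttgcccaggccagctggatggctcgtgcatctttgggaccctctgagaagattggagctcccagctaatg
Gngt1, chr6:3993758-3994057, plus strand: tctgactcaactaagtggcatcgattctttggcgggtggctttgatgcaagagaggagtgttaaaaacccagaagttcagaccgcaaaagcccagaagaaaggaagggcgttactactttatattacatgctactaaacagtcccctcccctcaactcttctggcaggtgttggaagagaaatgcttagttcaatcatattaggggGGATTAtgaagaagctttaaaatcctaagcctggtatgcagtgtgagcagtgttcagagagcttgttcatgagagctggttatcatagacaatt
Abca4, chr3:122044210-122044509, plus strand: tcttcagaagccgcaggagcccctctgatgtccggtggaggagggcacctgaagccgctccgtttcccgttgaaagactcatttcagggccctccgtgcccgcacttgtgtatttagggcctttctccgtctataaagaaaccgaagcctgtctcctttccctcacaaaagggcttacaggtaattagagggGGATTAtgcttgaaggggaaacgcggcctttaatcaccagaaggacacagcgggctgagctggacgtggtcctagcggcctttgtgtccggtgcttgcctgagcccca
Arr3, chrX:100605247-100605546, plus strand: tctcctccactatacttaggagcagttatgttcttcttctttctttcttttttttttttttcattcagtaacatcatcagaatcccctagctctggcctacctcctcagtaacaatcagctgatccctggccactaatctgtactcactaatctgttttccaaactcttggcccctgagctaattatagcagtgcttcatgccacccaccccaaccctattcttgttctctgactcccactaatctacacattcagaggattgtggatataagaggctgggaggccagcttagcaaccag
In Sag, Gngt1 and Abca4 the match reads GGATTA on the gene's strand, once in each window. No relation between these letters and the difference with age was examined.

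Photoreceptor transcripts were present in the RPE/choroid libraries at widely different levels. The mean normalized counts of the members ran from 78.0 for Cnga3 to 46603 for Sag, and together they held 0.927% of all counts, with 0.476% from rod genes, 0.0313% from cone genes and 0.420% from shared genes. Per kb of the annotated principal transcript, 6 members stood above 10000 normalized counts at every principal length, and Nrl stood at 8741 to 11352. These were Sag, the rod arrestin, at 27111, Pdc, which binds transducin beta and gamma, at 24049 to 24263, and Rom1 and Prph2, the tetraspanins of the disc rim, at 15592 and 11671. The other 2 were Gngt1 and Gnat1, the gamma and alpha subunits of rod transducin, at 14908 and 10979. Rpe65, the retinoid isomerase that marks RPE, stood at 61154 to 71117 per kb on the same scale. At the other end 3 members were under 100 per kb: Reep6, a rod gene of membrane trafficking, and the cone channel subunits Cnga3 and Cngb3. The 12 RPE markers examined were all detected and held 2.57% of counts. In such bulk tissue a different number of photoreceptor cells or fragments and a different amount of RNA per cell cannot be told apart.

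The rod genes of the light-activated chain had fold changes above 0 without passing the test. In transducin, Gnat1 (mean normalized count 25559.6) had a log2 fold change of 0.23 (SE 0.39, adjusted p = 0.723) and Gngt1 (17636) of 0.21 (SE 0.38, adjusted p = 0.738). Gnb1 (25907), whose beta subunit serves G proteins in most cell types as well as rod transducin, had 0.52 (SE 0.25), a ratio of 1.44 with a 95% interval of 1.02 to 2.03. With an unadjusted p of 0.0386 (0.124 after adjustment) it was the only uncalled member with an unadjusted p under 0.05. In the effector phosphodiesterase, Pde6b, a catalytic subunit (16944), had 0.08 (SE 0.39, adjusted p = 0.916) and the inhibitory subunit Pde6g (5910) had 0.07 (SE 0.40, adjusted p = 0.923). The other catalytic subunit, Pde6a (15466), had 0.32 (SE 0.39, adjusted p = 0.610). The intervals of these 3 phosphodiesterase genes, which are around moderated fold changes, reach from ratios of 0.61 to 2.11. That leaves room for sizeable differences either way.

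Further along the rod chain, the channel subunits Cnga1 (4417) and Cngb1 (1355), through which sodium and calcium enter in the dark, had log2 fold changes of 0.25 (SE 0.41, adjusted p = 0.714) and 0.51 (SE 0.42, adjusted p = 0.411). Slc24a1, the exchanger that carries the calcium out again (8020), had 0.29 with a narrower SE of 0.22 (adjusted p = 0.368). Sag had 0.15 (SE 0.39, adjusted p = 0.833), an interval of 0.65 to 1.89 as a ratio. The transcription factors Nrl and Nr2e3, which set rod identity, had 0.21 and 0.11 with SE of 0.39 and 0.40. Reep6, at a mean count of 103, had -0.04 (SE 0.39) and was the only rod gene below 0. The rod genes as a group had a median log2 fold change of 0.21, with 12 of 13 above 0 and a range from -0.04 to 0.52, beside a median of -0.02 and 48.3% above 0 over all tested genes. The intervals of 12 of the 13 hold 0 and those of all 13 hold the rod median. The genes share libraries and cells, so their common sign is not 13 separate measurements.

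**Figure D1:**
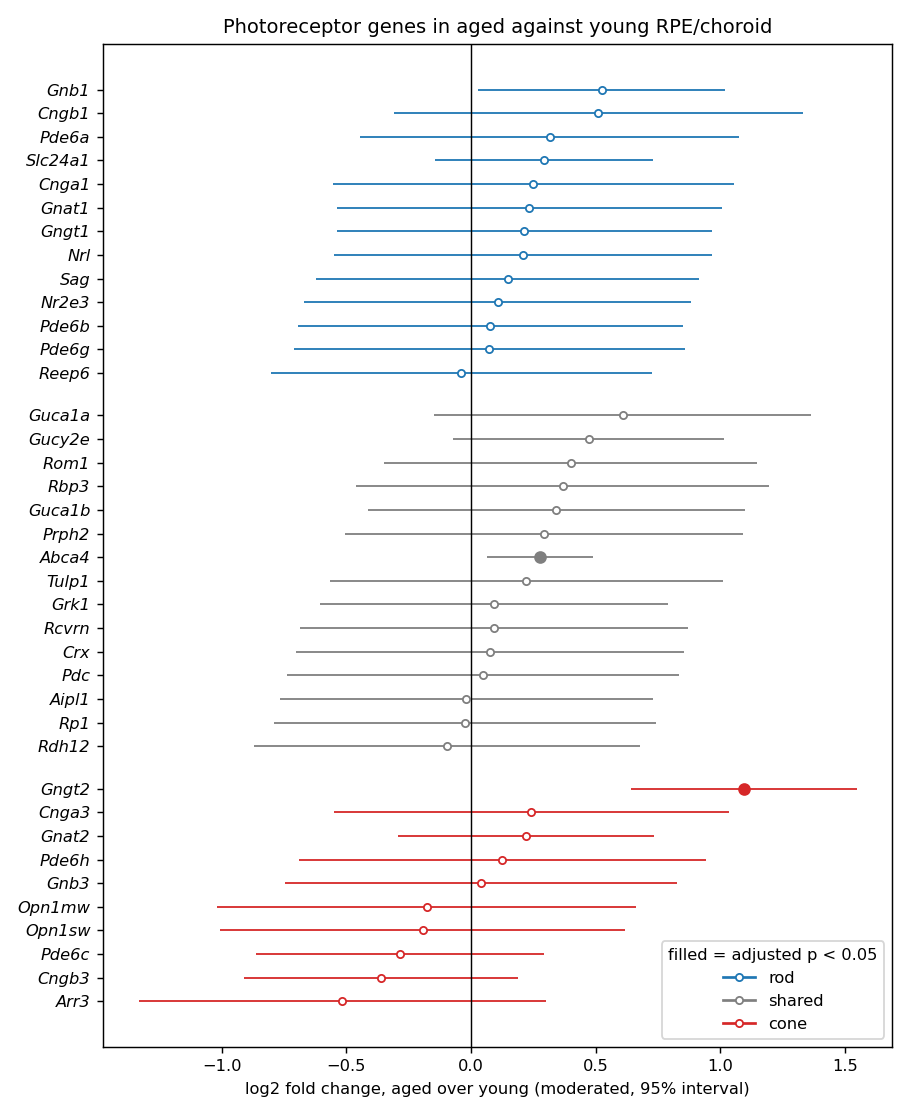
Log2 fold change, aged over young, of the 38 genes as points with 95% intervals from the authors' standard errors (x axis, log2 scale), grouped as rod, shared and cone genes on the y axis and sorted within each group. Filled points passed the test. Only Gngt2 and Abca4 are filled, the interval of Gnb1 also lies above 0, and the other 35 intervals cross it.

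Among the cone genes 1 passed the test. Gngt2, at a mean normalized count of 1693, had a log2 fold change of 1.10 (SE 0.23, adjusted p = 3.29e-05), a ratio of 2.14 with an interval of 1.56 to 2.92. It was the largest fold change of the 38 and the only one above 1. The other transducin subunits of cones did not pass the test: Gnat2 (2209) had 0.22 (SE 0.26, adjusted p = 0.593) and Gnb3 (1783) had 0.04 (SE 0.40, adjusted p = 0.960). The cone opsins, the visual pigments themselves, were measured at mean counts of 2558 for the short-wavelength Opn1sw and 645 for the middle-wavelength Opn1mw. Their log2 fold changes were -0.19 (SE 0.41, adjusted p = 0.785) and -0.18 (SE 0.43, adjusted p = 0.812). Arr3, the cone arrestin (1778), had the lowest value of all members, -0.52 (SE 0.42, adjusted p = 0.402), with a ratio interval of 0.40 to 1.23.

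The remaining 4 cone genes were those of the phosphodiesterase and the channel. Pde6c, the catalytic subunit (709), had -0.29 (SE 0.29, adjusted p = 0.529) and Pde6h, the inhibitory subunit (1187), had 0.12 (SE 0.42, adjusted p = 0.866). The channel subunits Cnga3 (78.0) and Cngb3 (141) had 0.24 (SE 0.40, adjusted p = 0.719) and -0.36 (SE 0.28, adjusted p = 0.383). The cone genes had a median of -0.07, with 5 of 10 above 0 and a range from -0.52 to 1.10. The intervals of the 9 cone genes other than Gngt2 all hold 0.

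Gngt2 lies on chromosome 11 from 95837216 to 95845734 (GRCm38, plus strand), and its exons overlap those of Abi3 on the opposite strand. Abi3, at a mean count of 42.0, had 0.39 on the log2 scale (SE 0.35, adjusted p = 0.459). The study's methods name a stranded kit for RNA depleted of ribosomal RNA, and describe no separate kit for the poly(A)-selected libraries used here. Quantification had default settings, and whether it used strand is not stated. Gngt2 is also transcribed in white blood cells. Of 6 macrophage markers 4 were called, all higher, beside 12.9% of all tested genes: Cd68 (3.40), Adgre1 (1.53), Aif1 (1.32) and Cx3cr1 (0.60). The other 2, Csf1r and Itgam, had 0.10 and 0.41 and did not pass the test, and the median of the 6 was 0.96. The summed mean count of the 6 was 16405 over both age groups, and none was at 0. Their part in the Gngt2 difference was not tested. Exon overlaps touched 3 more members. On opposite strands, Pde6h overlapped Arhgdib (mean count 1175), which was itself called higher at 0.44 (SE 0.15, adjusted p = 0.0182). Opn1sw overlapped Calu on the opposite strand (24234, -0.26, adjusted p = 0.118), and Nr2e3 overlapped Gm15507 (6.04) on its own strand.

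**Figure D2:**
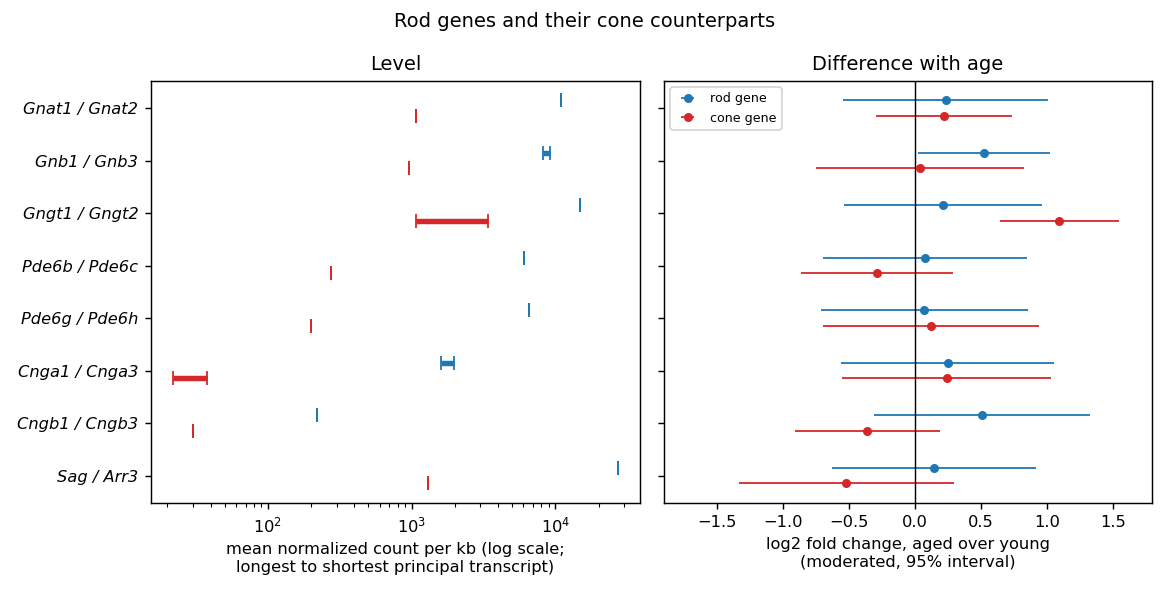
Rod genes (blue) and their cone counterparts (red) for 8 steps of the cascade. Left, mean normalized count per kb on a log scale, from the longest to the shortest principal transcript (a tick where there is 1 length), with the rod gene to the right of the cone gene in all 8 pairs; right, log2 fold change aged over young with 95% intervals, where only the Gngt2 interval and that of Gnb1 lie clear of 0.

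The 8 steps at which rods and cones use different genes could be set side by side. Gnb1 and Gngt2 are also transcribed in other cells, so their pairs are not of rods against cones alone. The rod gene had the higher level per kb in all 8 pairs for every annotated principal transcript length, by 4.38 times (Gngt1 over Gngt2) to 89.4 times (Cnga1 over Cnga3). The transducin alpha subunits differed 10.2 times and the arrestins 20.7 times. The limit given above for levels per kb holds for these ratios as well. For Pde6h the principal transcript is 5940 nt but another coding transcript has 211 nt, which brings Pde6g over Pde6h from 32.9 down to 1.17 times, so that pair is uncertain. The cone genes Gnat2, Arr3 and Cnga3 also have shorter coding transcripts, of 587, 423 and 651 nt, which would lower their ratios. On the rod side Cnga1 has one of 157 nt. Ratios with these lengths were not computed, so those given hold for principal transcripts only. In the difference with age, the rod gene had the higher fold change in 6 of 8 pairs. The gap, rod minus cone on the log2 scale, ran from 0.87 for Cngb1 and Cngb3 to -0.88 for Gngt1 and Gngt2. It was 0.66 for Sag and Arr3 and 0.01 for Gnat1 and Gnat2. These gaps are descriptions, since the covariance of a pair's fold changes is unknown without values per library, and no difference between rod and cone genes was tested.

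Among the shared genes, Abca4 (mean normalized count 13221) had a log2 fold change of 0.28 with an SE of 0.11, the smallest of the 38 (adjusted p = 0.0495). Its ratio interval was 1.04 to 1.40. The call sits at the threshold: the authors' own adjusted p-value is 0.0511, and the call was lost in 6 of the 8 alternative settings. Abca4 lies on chromosome 3 from 122044443 to 122180123 (GRCm38, plus strand) with no exon of another gene over its own. It is also transcribed in RPE, whose markers had a median log2 fold change of 0.25, with 11 of 12 above 0. Of these 12, 3 were called, all higher, beside 23.3% of all tested genes, 12.9% as higher: Best1 (0.98), Rgr (0.66) and Mertk (0.58). The summed mean count of these 12 was 1050120, none was at 0, and their part in the Abca4 difference was not tested.

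The other shared genes were not called. The genes that restore cGMP had fold changes above 0: Guca1a, a calcium-sensing activator of guanylate cyclase, at 0.61 (SE 0.39, adjusted p = 0.265), the cyclase Gucy2e at 0.47 (SE 0.28, adjusted p = 0.222) and the second activator Guca1b at 0.34 (SE 0.39, adjusted p = 0.571). The genes that shut off the signal or tune it were close to 0, with 0.09 for the receptor kinase Grk1 (SE 0.36), 0.09 for its calcium-dependent inhibitor Rcvrn (SE 0.40) and 0.05 for Pdc (SE 0.40). In outer segment structure, Rom1 had 0.40 (SE 0.38), Prph2 0.29 (SE 0.41), and Rp1, which binds the microtubules of the axoneme, -0.03 (SE 0.39). In the visual cycle, Rbp3, which carries retinoids through the space between photoreceptors and RPE, had 0.37 (SE 0.42), and the retinol dehydrogenase Rdh12 had -0.10 (SE 0.39). The transcription factor Crx had 0.08, the trafficking protein gene Tulp1 0.22 and Aipl1, a chaperone of the phosphodiesterase, -0.02, with SE of 0.38 to 0.40. The median of the 15 was 0.22, with 12 above 0.

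Most members had wider errors than the usual gene of their abundance. The median SE was 0.39 for the members and 0.18 for all tested genes. Standard errors in the table have a highest value of 0.434, which is reached mostly near a mean count of 10 (median 10.2 among genes within 0.0001 of it), and the class medians fall from 0.42 at counts of 10 to 30 to 0.13 at 3000 to 10000. Of the tested genes with a mean count of at least 1000, 7418 in number with a median SE of 0.14, 151 (2.04%) had an SE of at least 0.35. Of the 33 members with such counts, 27 (81.8%) did. Their SE was 2.77 times (Grk1) to 3.29 times (Rbp3) the median of their abundance class. Sag, with the highest mean count of all members, had an SE of 0.39 where the class median was 0.13. Wide errors were not particular to the members. Of genes with such counts, 13 of 26 other photoreceptor genes, 1 of 5 Müller glia markers, 1 of 2 amacrine and horizontal cell markers, 1 of 6 endothelial and 1 of 6 macrophage markers reached 0.35, as did 107 genes in none of the lists, but none of 11 RPE and 6 melanocyte markers. Over all genes with a fold change, the median SE falls again at lower counts, to 0.41 at 3 to 10, 0.30 at 1 to 3 and 0.17 up to 1. The fold changes are moderated, so the errors reflect that moderation together with the spread between libraries of an age group. These parts cannot be separated here, and which mice were high or low cannot be read from the deposited values.

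**Figure D3:**
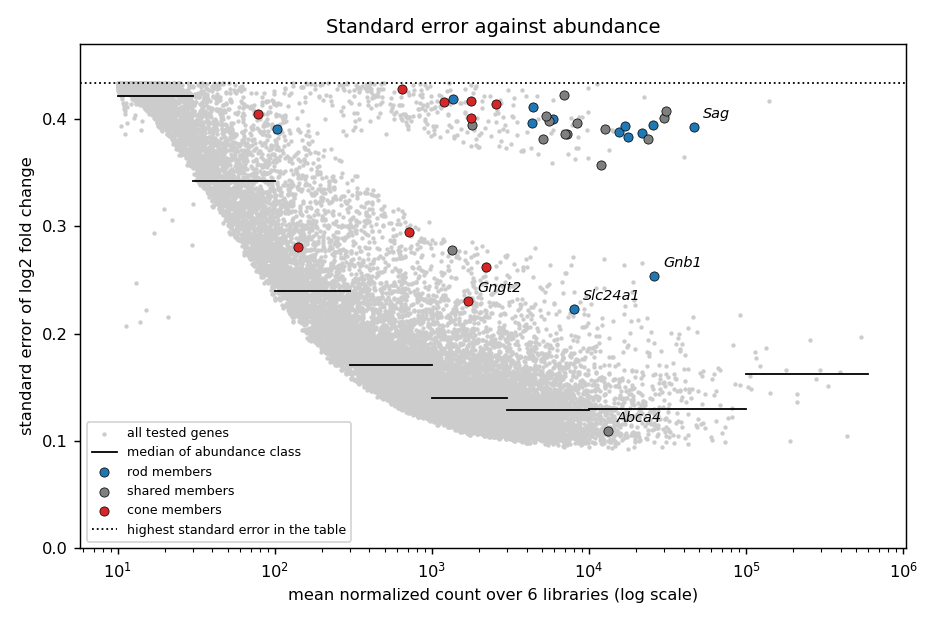
Standard error of the log2 fold change (y axis) against the mean normalized count over 6 libraries (x axis, log scale) for all tested genes (grey), with the median of each abundance class (black bars) and the highest standard error in the table (dotted line). Most rod, shared and cone members lie in a band close to that line, far above the class medians, while Abca4 lies below its class median.

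The precision sets what could have been called. A Wald statistic of at least 2.52 was needed for a call, which for the 30 members with wide errors corresponds to ratios from 1.87 (Grk1) to 2.11 (Opn1mw). For Sag the ratio needed was 1.99 and for Gnat1 1.99. Of the 8 members with narrower errors, Abca4 needed 1.21, Slc24a1 1.48, Gngt2 1.50 and Gnb1 1.56. The other 4, Gnat2, Gucy2e, Cngb3 and Pde6c, needed 1.58 to 1.67. These ratios are of moderated fold changes, and the unmoderated difference that each stands for cannot be read from the deposited values. Smaller moderated differences with age in these genes would not have been called with 3 mice a group and these errors. The 8 had a median log2 fold change of 0.29, with 6 above 0 and 2 called, and the 30 had a median of 0.12, with 23 above 0.

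Of 48 further photoreceptor genes, 47 were in the table and 44 could be tested. Of these 44, 3 were called, 1 higher and 2 lower, beside 23.3% called among all tested genes. Cdhr1, a cadherin at the base of the outer segment, was higher at 0.70 (SE 0.26, adjusted p = 0.0344). Rpgrip1 and Rpgr, which bind each other in the connecting cilium, were lower at -0.90 (SE 0.28, adjusted p = 0.0101) and -0.54 (SE 0.17, adjusted p = 0.0118). The ciliary gene Rpgr is transcribed in many cell types. The median of the 44 was 0.03, with 25 above 0. The calls of Cdhr1 and Rpgr depended on the scale: Cdhr1 was not called with equal summed counts (adjusted p = 0.0866), and Rpgr was not called after removal of a trend with length and GC content (adjusted p = 0.0766). Pde6d, Prdm1 and Tmem237 had a fold change and no p-value.

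Markers of other cells that the sample could hold stood as follows. Over all tested genes 23.3% were called, 12.9% as higher and 10.4% as lower, and 6112 of 18196 had an unadjusted Wald p under 0.05. Genes of these lists can also be transcribed by other cells of the sample. Among cells of the neural retina, 0 of 9 bipolar and 0 of 8 ganglion cell markers were called (0 of each also at an unadjusted p under 0.05 in the DESeq2 Wald test), with median log2 fold changes of -0.25 and -0.26, against 1 of 8 for amacrine and horizontal cells (Tfap2b, -0.73). Of 7 Müller glia markers 3 were called, Kcnj10 higher (1.27) and Abca8a (-1.07) and Slc1a3 (-0.57) lower. Of 6 pigment cell markers listed for melanocytes 4 were called, all lower (Tyr, Pmel, Dct and Mitf, -0.48 to -0.70). RPE is pigmented as well, so these values are not assigned to melanocytes. Of 7 endothelial markers 1 was called (Tek, -0.48). Beside the medians of 0.21 for rod, 0.22 for shared, -0.07 for cone and 0.03 for other photoreceptor genes stood 0.25 for RPE, -0.01 for Müller glia and -0.09 for amacrine and horizontal cell markers, and no difference between lists was tested. The share of retina left on each RPE/choroid was not measured, and its part in the photoreceptor values was not tested.

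**Figure D4:**
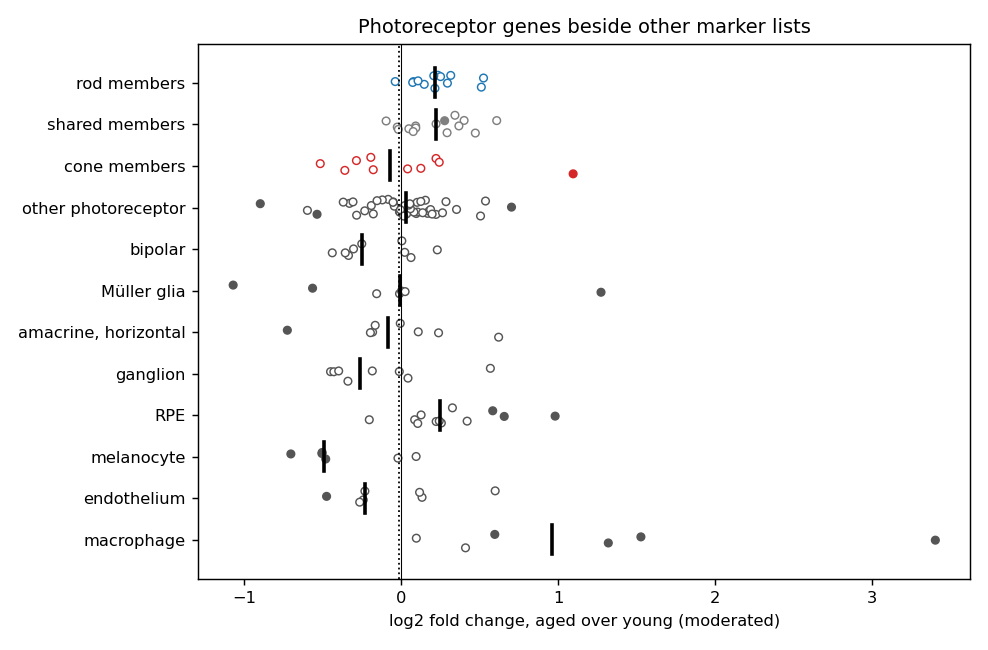
Log2 fold change, aged over young (x axis), of each tested gene in the rod, shared and cone groups and in the marker lists of other cells (y axis). Filled points passed the test, black bars are list medians and the dotted line is the median of all tested genes. The rod and shared genes lie mostly between 0 and 0.61, Gngt2 lies apart from the other cone genes, and the macrophage markers reach 3.40.

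The sign of the smaller values depended on the scale. If the summed counts of both ages were set equal, every log2 fold change would move down by 0.13. With this constant subtracted, 20 of the 38 members were above 0 in place of 29, with 9 of 13 rod, 3 of 10 cone and 8 of 15 shared genes. Abca4 was no longer called, and Gngt2 was still called.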

How the data were processed

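From RPE/choroid of 6 mice, 3 in each age group, the authors made ribosomal RNA depleted, poly(A)-selected libraries. They trimmed reads with BBDuk, mapped them with STAR to GRCm38 transcripts, quantified them with Sailfish and compared ages with DESeq2, whose version is not given in the sources used here. The deposited table has 1 line per gene. Its mean normalized count is a signal that the authors averaged over the 6 libraries, so the depth of single libraries is unknown. Its fold change and standard error are log2 values deposited with the young group in the numerator, and were turned round here. The deposited Wald statistic is a score, the fold change over its standard error. The p-values are the authors' 2-sided Wald p-values.

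A fit to values per library had been planned. Without such values the authors' comparison was used, as the choice of members asks for its fold changes and errors. P-values were adjusted again by the Benjamini-Hochberg procedure, over 18196 genes that had one and whose mean count reached 10, and genes under 0.05 were called. Intervals are normal 95% intervals around the moderated fold changes, and need not cover the unmoderated difference. The labels give separate mice, and p-values measure the spread the authors' model estimated between them. Members and lists were chosen with earlier results of these data known. Every member is named; genes of other lists are named if called, at most 5 a list, and 6 uncalled ones (Csf1r, Gucy2f, Itgam, Pde6d, Prdm1 and Tmem237) were named after their values were seen, as was Rpe65 for its level. Of 156 listed symbols 155 were matched, 5 of them by an older symbol. Transcript lengths came from a GENCODE annotation of GRCm38, and promoters from RefSeq. Scripts were tested on simulated data and used Python 3.11.15, numpy 2.4.6, pandas 2.3.3, scipy 1.17.1, statsmodels 0.14.6 and matplotlib 3.10.9. The alternatives were no filter, a minimum count of 50, the authors' adjusted p-values, a threshold of 0.01, a log2 fold change of 1 or more in either direction, p-values for genes without one, equal summed counts, and removal of a trend with length and GC content.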

Additional observations from a re-analysis of the deposited data

How the results depend on the processing

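Of the 38 members, 36 stayed uncalled under every one of the 8 alternatives run, and Gngt2 stayed called under all 8. Only 1 member was called, and 0 shared genes, without the filter on low counts, with the adjustment the authors had made, at a threshold of 0.01, when the fold change also had to reach 1 in size on the log2 scale, with equal summed counts and with the length and GC trend removed, as Abca4 was lost each time. Of the other photoreceptor genes 0 were called at 0.01 or with that size of fold change. Over all tested genes, 3937 of 25210 were called without the filter, 4231 of 18959 with the authors' adjustment and 2895 of 18196 at 0.01. With the length and GC trend removed, 3623 of 16186 were called. With equal summed counts Cdhr1 was lost and Gucy2f gained, and with the trend removed Rpgr was lost, leaving 2. With equal summed counts the log2 fold change turned below 0 for Pde6b (-0.053), Pde6g (-0.058), Nr2e3 (-0.024), Gnb3 (-0.090), Pde6h (-0.0060), Rcvrn (-0.039), Pdc (-0.082), Grk1 (-0.038) and Crx (-0.055). Calls over all genes then numbered 5045, 33.1% of them higher in aged, against 4235 and 55.5%, and the required size of 1 left 1287. With the trend removed, fitted on the 89.0% of tested genes matched by symbol, Gnb3 (-0.061), Rcvrn (-0.013) and Rp1 (0.23) changed sign, and 28 of 38 members were above 0. No paired analysis was possible because single libraries have no values here, and for the same reason leaving out each mouse, a fit with edgeR and a second normalization were not run.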
